A study of Mus musculus with 12 samples.

Results

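The genes described here are the 2 subunits of calprotectin, S100a8 and S100a9, 4 genes of proteins that neutrophils make late in their maturation, Ltf, Ngp, Camp and Chil3, and Cebpe, which encodes a transcription factor of that stage. They were taken by gene name from the deposited table. The names were chosen by their values in these data, since earlier results had shown them high in tumour mice at day 21. They are 7 of the 15910 genes listed and 7 of the 12631 with a mean of at least 10 normalized counts. RNA was read from hepatocytes of 12 female Balb/c mice that were injected at 8 weeks of age and killed 4 or 21 days later. Tumour mice received 4T1 cells, a mouse mammary carcinoma line, in the orthotopic site, and control mice received PBS, with 3 mice in each group at each day. The labels give no genetic change in either group. The groups were thus tumour day 4 (replicates 1, 2 and 3), PBS day 4 (4, 5 and 6), tumour day 21 (7, 8b and 9a) and PBS day 21 (10a, 11a and 12b). The hepatocytes were dissociated after perfusion of the liver, and the labels name no sort, so cells of the blood and of the liver sinusoids could remain in the preparation. The 10 hepatocyte markers examined, Alb and Hnf4a among them, had reads in every library.

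S100A8 and S100A9 are small calcium-binding proteins that pair into calprotectin, which fills the cytosol of neutrophils, binds zinc and manganese, and can signal to other cells once released. Neutrophils build their granules in order as they mature in the bone marrow: azurophil granules with myeloperoxidase come early, and secondary and tertiary granules follow. Ltf encodes lactoferrin, an iron-binding protein of secondary granules, Ngp a neutrophilic granule protein and Camp the precursor of the antimicrobial peptide cathelicidin. Chil3 encodes the chitinase-like protein Ym1 of mouse myeloid cells, and C/EBP epsilon, the product of Cebpe, is required in mouse granulocytes for the secondary granule genes.

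The genes lie in a few places on the GRCm38 genome. S100a8 (ENSMUSG00000056054, chromosome 3, 90668978 to 90670035, plus strand) and S100a9 (ENSMUSG00000056071, chromosome 3, 90692632 to 90695721, minus strand) are 22.6 kb apart, and Chil3 (ENSMUSG00000040809, 106147554 to 106167564, minus strand) is on the same chromosome. Camp (ENSMUSG00000038357, 109847379 to 109849617, minus strand), Ngp (ENSMUSG00000032484, 110419747 to 110423012, plus strand) and Ltf (ENSMUSG00000032496, 111019271 to 111042767, plus strand) lie within 1.2 Mb of chromosome 9. Cebpe (ENSMUSG00000052435) is at 54710360 to 54712174 on the minus strand of chromosome 14. Chil3 has near-identical relatives in the mouse genome, so reads could be split among them in counting and its values are uncertain.

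Because the members moved together, the sequence around their starts is shown for the 2 calprotectin genes and for the pair of granule genes with the most reads. Each run holds 250 bases before the RefSeq start (GRCm38.p6) and 30 after it, 5′ to 3′ on the gene's strand, with matches to the searched motifs in capitals. The regions are chr3:90668821-90669100 (plus) for S100a8, chr3:90695692-90695971 (minus) for S100a9, chr9:111019042-111019321 (plus) for Ltf and chr9:110419558-110419837 (plus) for Ngp.
S100a8: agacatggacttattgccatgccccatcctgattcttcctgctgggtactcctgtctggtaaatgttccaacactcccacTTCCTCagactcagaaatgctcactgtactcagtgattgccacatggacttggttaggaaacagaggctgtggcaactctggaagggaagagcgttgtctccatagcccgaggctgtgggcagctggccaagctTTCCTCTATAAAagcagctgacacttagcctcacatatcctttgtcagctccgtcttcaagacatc
S100a9: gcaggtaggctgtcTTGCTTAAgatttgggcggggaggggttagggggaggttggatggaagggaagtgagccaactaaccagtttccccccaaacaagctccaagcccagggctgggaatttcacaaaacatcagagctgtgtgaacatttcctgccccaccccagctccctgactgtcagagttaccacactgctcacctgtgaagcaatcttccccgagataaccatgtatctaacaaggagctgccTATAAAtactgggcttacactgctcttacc
Ltf: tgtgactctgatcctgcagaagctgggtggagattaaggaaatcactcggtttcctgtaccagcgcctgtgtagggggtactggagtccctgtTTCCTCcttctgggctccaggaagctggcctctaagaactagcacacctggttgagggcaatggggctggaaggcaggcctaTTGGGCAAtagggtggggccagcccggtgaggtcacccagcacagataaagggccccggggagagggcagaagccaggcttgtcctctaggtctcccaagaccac
Ngp: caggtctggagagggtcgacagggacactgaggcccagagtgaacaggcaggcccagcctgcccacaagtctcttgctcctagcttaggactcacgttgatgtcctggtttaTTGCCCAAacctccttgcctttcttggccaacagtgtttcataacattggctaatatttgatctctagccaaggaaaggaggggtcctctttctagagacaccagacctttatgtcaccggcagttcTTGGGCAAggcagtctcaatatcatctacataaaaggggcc

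The motifs were searched on both strands in windows of 300 bases, which reach 50 bases past the start: TTGCNNAA for C/EBP factors, GAGGAA for PU.1 and TATAAA for the TATA box. Of the members, 6 matched an entry of the RefSeq promoter table, and Cebpe was not among them. The C/EBP letters were found in S100a9 (bases -236 to -229), Ltf (-75 to -68) and Ngp (-138 to -131 and -11 to -4), which is 3 of 6 members, and in 10.8% of all 32851 windows. The PU.1 letters were in S100a8 at -170 to -165 and at -36 to -31 and in Ltf at -157 to -152, all on the strand opposite to the gene. That is 2 of 6 members, against 28.3% of all windows. TATAAA stood at -30 to -25 in S100a8, where it adjoins the nearer PU.1 match, at 1 to 6 in S100a9 and at -3 to 3 in Chil3, against 13.6% of all windows. Camp held none of the 3 motifs in its window. The RefSeq start was the same as the outermost GENCODE start for S100a9 and Chil3, and 93, 21, 61 and 161 bases downstream of it for S100a8, Ltf, Ngp and Camp. A match describes the letters only.

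**Figure D1:**
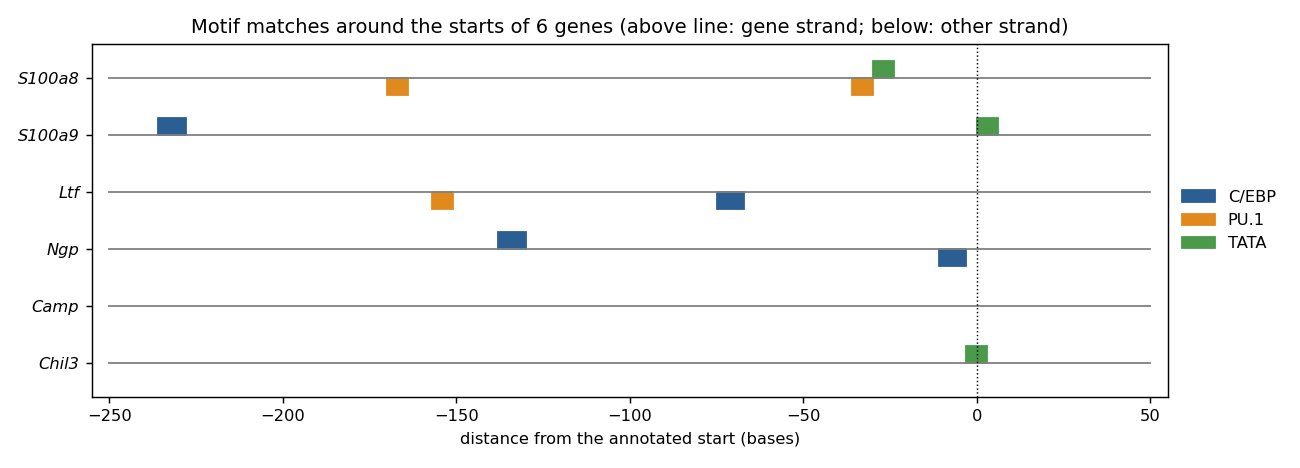
Matches of the 3 motifs from 250 bases before to 50 after the RefSeq start of the 6 genes found in the promoter table. The x axis is the distance from the start in bases, and blocks above a line are on the gene's strand and those below it on the other. C/EBP letters appear in S100a9, Ltf and Ngp, and Camp has no block.

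The libraries held 13421218 to 19634260 recovered reads at day 4 and 9375095 to 21809166 at day 21, the fewest in tumour day 21 replicate 8b. The library least like the others was tumour day 21 replicate 7. Its Pearson correlations with them, over log2 values of all tested genes, had a median of 0.830, against 0.926 for replicate 8b, 0.937 for 9a and 0.961 to 0.973 for the rest. The members' differences and the list counts at day 21 are therefore also given without it. The values below are normalized counts, which are reads divided by a size factor for the library and not by gene length. The labels name no batch, and they do not explain the letters in the replicate names of day 21.

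At day 21 the members were all high in tumour mice and near 0 in PBS mice. These differences chose the genes, so they are given as a description with no test. S100a9 had 23327.14, 4780.52 and 3785.29 normalized counts in tumour day 21 replicates 7, 8b and 9a, against 1.74, 5.61 and 6.36 in PBS day 21 replicates 10a, 11a and 12b. S100a8 had 13558.5, 3041.24 and 2247.97 in the tumour mice, against 0, 2.8 and 2.72 in the PBS mice. Replicate 7 was the highest library for both subunits, and the lowest tumour library was still far above the highest PBS library. Over the summed reads of each group, per library read, S100a8 was 3697-fold higher in tumour mice (21560 reads against 7, 95% interval 1794 to 9197) and S100a9 2592-fold higher (36714 against 17, 1619 to 4451). Replicate 7 carried most of these reads, and without it the ratios were 1290 (626 to 3211) for S100a8 and 872 (544 to 1497) for S100a9. These intervals and those below cover counting error only, not the spread between mice.

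In the secondary granule genes replicate 7 was again far above the other tumour mice. Ngp had 23016.16, 3932.5 and 3558.58 normalized counts in tumour day 21 mice, against 2.62, 2.1 and 0 in PBS day 21 mice. Ltf had 8936.69, 1461.59 and 1451.06, against 0.87, 1.4 and 0.91, and its replicates 8b and 9a were almost level. Camp had 2845.62, 458.93 and 466.39, against 0, 0.7 and 0.91, and here replicate 9a was slightly above 8b. The groups did not overlap for any of the 3 genes. With 4 PBS reads or more the ratio was 7106 for Ngp (35522 reads against 6, interval 3265 to 19366) and 4154 for Ltf (13844 against 4, 1622 to 15249). Camp, with 4410 reads against 2, gave 2647 with an interval of 732 to 21862. Without replicate 7 the ratios were 2216 for Ngp, 1315 for Ltf and 839 for Camp.

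Chil3 and Cebpe had fewer reads in tumour mice and none in PBS mice at day 21. Chil3 had 593.68, 131.36 and 89.31 normalized counts in tumour day 21 replicates 7, 8b and 9a, and Cebpe had 484.64, 91.45 and 87.78. Set against 3 reads over the PBS group, the limit that a count of 0 allows, Chil3 was at least 373-fold higher (931 reads) and Cebpe at least 308-fold higher (770 reads). Without replicate 7 these bounds were 124 and 107. Cebpe, the regulator, was thus the least abundant member by normalized count, with replicate 7 highest and the other two tumour mice close together.

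Together the members took 0.534% of the reads of tumour day 21 replicate 7 (Wilson 95% interval 0.531% to 0.538%), 0.0892% of replicate 8b (0.0873% to 0.0911%) and 0.0769% of replicate 9a (0.0757% to 0.0782%). In PBS day 21 mice their share was 3.45e-05%, 8.25e-05% and 7.42e-05%. On the log2(value + 1) scale the differences between the group means ran from 7.31 (Cebpe) to 11.58 (Ngp), with a median of 10.35, against a median of 0.02 over all 12631 genes. The values of Chil3 and Cebpe on this scale depend on the added 1 and are no bounds. With both genes at the bounds above, the median ratio of summed reads was 2647. All 7 members were higher in tumour mice with no overlap, as were 17.2% of all genes tested, and nothing is read from that count since it chose the genes. Without replicate 7 the differences ran from 6.5 (Cebpe) to 10.71 (Ngp). In bulk libraries of this kind, more cells of a type and more RNA per cell cannot be told apart.

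**Figure D2:**
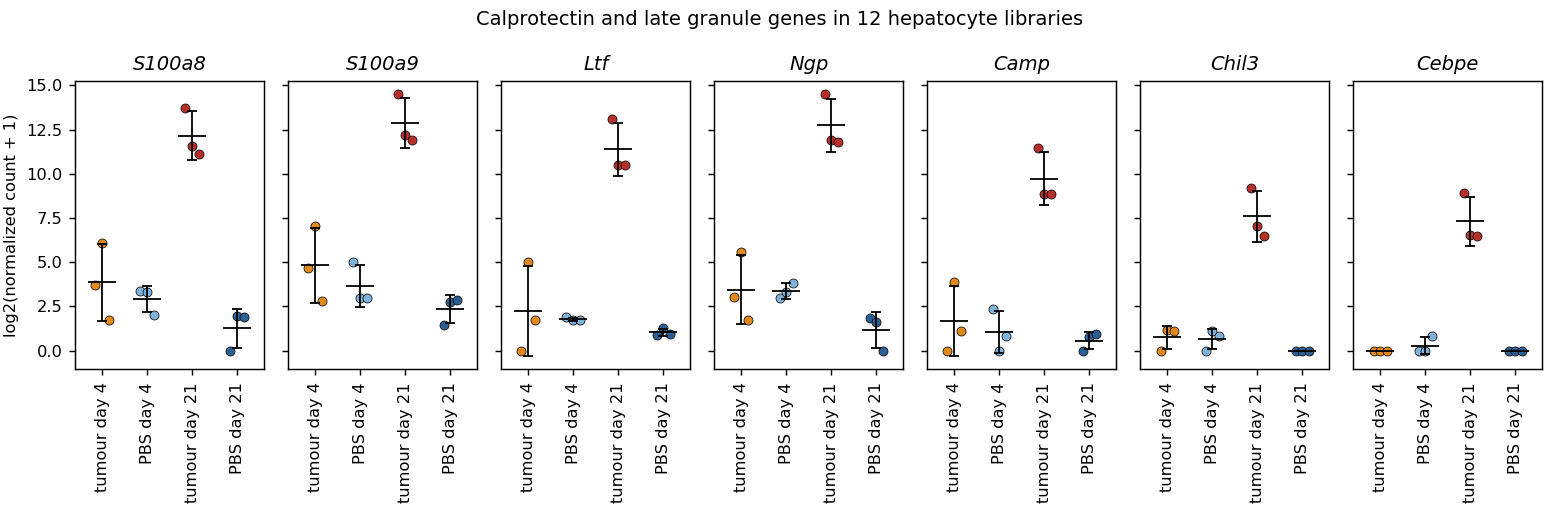
Log2(normalized count + 1) of each gene (y axis) in the 4 groups (x axis), with 1 point for each mouse, a line at the mean and bars of 1 SD (n = 3). The 3 tumour day 21 mice lie above every other mouse for all 7 genes, and tumour day 4 replicate 2 is clearly above the rest for the first 5.

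The tumour mice at day 21 differed far more from each other in amount than in makeup. The SD over the 3 mice was 100% of the mean for S100a8 and 109% for Ltf, Ngp and Camp, the lowest and the highest values among the members. Replicate 7 exceeded replicate 8b by 4.46-fold (S100a8) to 6.2-fold (Camp), and replicate 9a by 5.52-fold (Cebpe) to 6.65-fold (Chil3). The median ratio of replicate 7 to the mean of 8b and 9a was 5.45 over the members and 0.996 over all genes tested. The same ratio had a median of 5.15 over 9 azurophil granule genes and 4.74 over 13 other genes of secondary and tertiary granules. It was 7.12 over 4 erythroid genes, above the members, and 5.25 over 6 monocyte genes. Over 10 Kupffer cell genes it was 3.62, over 7 endothelial genes 2.85 and over 10 hepatocyte genes 0.757. Markers of several other cell types thus moved with the members in this library. Their part in the members' values was not tested.

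Replicates 8b and 9a had similar totals but not the same mixture. S100a8 was 1.35-fold higher in 8b than in 9a (95% counting interval 1.28 to 1.43), S100a9 1.26-fold (1.21 to 1.32) and Ngp 1.11-fold (1.05 to 1.16). Ltf at 1.01 (0.929 to 1.09), Camp at 0.984 (0.851 to 1.14) and Cebpe at 1.04 (0.741 to 1.45) had intervals that included 1, and Chil3 stood at 1.47 (1.09 to 1.97). Both calprotectin subunits therefore sat above Ltf, Ngp and Camp in this ratio. Some genes of late maturation and of the other secondary and tertiary granule genes, named here after their values were seen, were higher still in 8b. Mmp8, the neutrophil collagenase, had a ratio of 2.12 (1.53 to 2.94), Retnlg 2.11 (1.58 to 2.83) and Cxcr2, a chemokine receptor, 1.63 (1.22 to 2.18). Others of the same lists were lower in 8b, among them Fpr1 at 0.43 (0.235 to 0.742) and Fcnb at 0.625 (0.466 to 0.829). Mpo, which encodes the myeloperoxidase of azurophil granules, had 1.08 (1.01 to 1.15), and Elane, neutrophil elastase, 0.941. The median ratio was 1.11 over the members, 1.06 over the azurophil list, 0.305 over Kupffer cell genes and 0.99 over all genes tested. It was 1.38 over the late maturation genes, which ran from 0.43 to 2.11. Over the other secondary and tertiary granule genes it was 1.62, with a range of 0.349 to 2.93. That list includes Lcn2 and Hp, which hepatocytes also make. It compares 2 mice of 1 group, with no replicate check.

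Levels of different genes were compared per kb of exon. In all 3 tumour mice at day 21 the order was S100a9, S100a8, Ngp, Camp and Ltf from high to low. S100a9 made up 49.6%, 51% and 49.8% of the members' summed count per kb in replicates 7, 8b and 9a. S100a8 made up 21.7%, 24.4% and 22.2%, and Ngp 20.9%, 17.9% and 20%. Camp took 4.16%, 3.37% and 4.22%, and Ltf, the longest transcript, 2.87%, 2.36% and 2.89%. The order of the last pair changed between mice: per kb, Cebpe had 391 normalized counts and Chil3 364 in replicate 7, and Cebpe had 70.7 and Chil3 54.7 in replicate 9a, but Cebpe had 73.7 and Chil3 80.5 in replicate 8b.

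The 2 subunits of calprotectin had similar shares of their summed reads in all 4 groups. S100a9 supplied 63.2% of the reads of the pair in tumour day 21 replicate 7 (Wilson 95% interval 62.8% to 63.7%), 61.1% in 8b (59.7% to 62.5%) and 62.7% in 9a (61.7% to 63.8%). In summed reads it supplied 66.2% at tumour day 4 (59.4% to 72.3%), 66.7% at PBS day 4 (53.7% to 77.5%) and 70.8% at PBS day 21 (50.8% to 85.1%), with wide intervals that hold few reads. The interval of 8b lay just below that of 7. Camp supplied 24.2%, 23.9% and 24.3% of the reads of Camp and Ltf in replicates 7, 8b and 9a. Ngp against S100a8 was less even, with 62.9%, 56.4% and 61.3% of the reads of that pair. The 3 secondary granule genes Ltf, Ngp and Camp gave 54.6% (54.3% to 55%), 47.4% (46.3% to 48.6%) and 48.8% (48% to 49.6%) of the reads that they shared with the azurophil genes Mpo, Elane, Prtn3 and Ctsg.

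**Figure D3:**
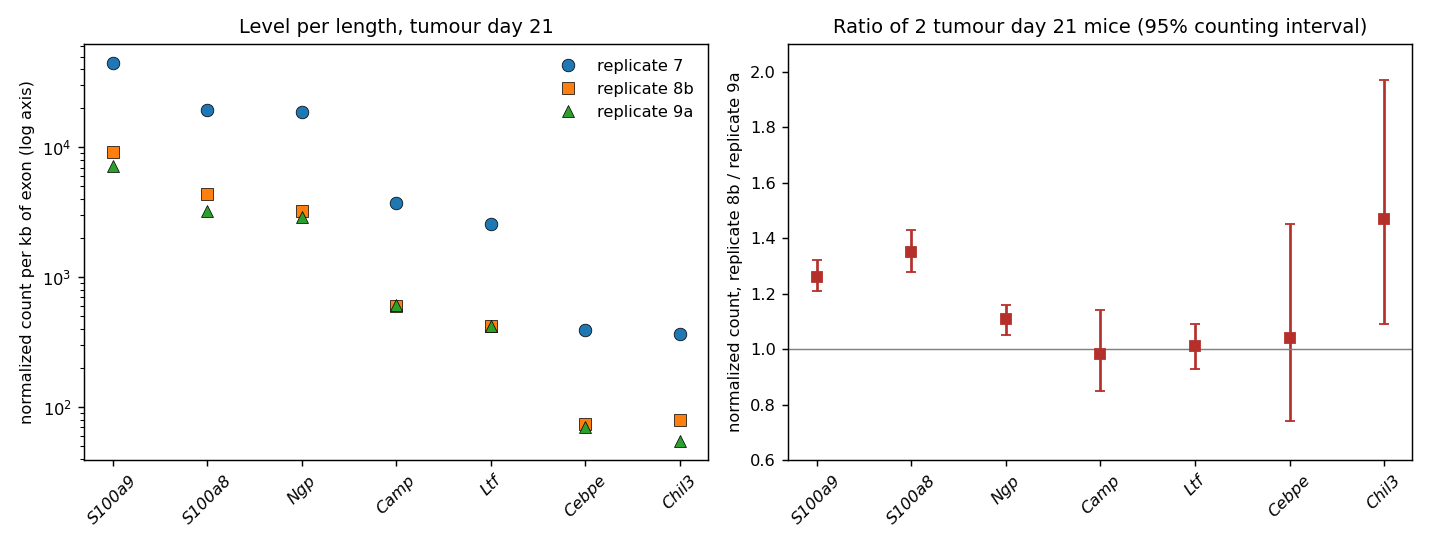
Left, normalized count per kb of exon (log axis) of each gene in the tumour day 21 mice, replicates 7, 8b and 9a; replicate 7 is highest throughout. Right, the ratio of replicate 8b to replicate 9a with its 95% counting interval; S100a9, S100a8, Ngp and Chil3 lie above 1, and the intervals of Camp, Ltf and Cebpe include it.

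Outside the tumour day 21 mice the members were scarce. Over the other 9 libraries S100a9 averaged 24.3 normalized counts and S100a8 12.12, and the remaining 5 members averaged 9.971 (Ngp), 4.83 (Ltf), 2.342 (Camp), 0.4778 (Chil3) and 0.08556 (Cebpe). Those 5 therefore passed the minimum of 10 only through the tumour day 21 mice. All 9 libraries together held 190 reads of S100a9, 95 of S100a8, 83 of Ngp, 38 of Ltf, 18 of Camp, 4 of Chil3 and 1 of Cebpe.

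At day 4 the members could be tested, since the day 4 libraries had no part in their choice, and none of the 7 passed. That count says little for 5 of them, which entered the test only through the tumour day 21 mice. Among these, Chil3 and Cebpe had too few reads to pass. The spread in limma's fit came from all 12 libraries, and a fit of the 2 groups alone called none of the 7 either. In limma's test none of the 12631 genes (0%) passed at an adjusted p under 0.05, while 761 (6.02%) had an unadjusted p under 0.05. On recovered reads edgeR also called 0 genes, and DESeq2 called 3. DESeq2 gave an adjusted p for 2 of the members, S100a8 (0.771) and S100a9 (0.75), and none for the other 5. S100a8 had 12.21, 67.53 and 2.34 normalized counts in tumour day 4 replicates 1, 2 and 3, against 9.39, 9.02 and 3.1 in PBS day 4 replicates 4, 5 and 6. S100a9 had 24.41, 130.15 and 5.85, against 30.86, 6.76 and 6.97. In both genes replicate 2 stood high and replicate 3 was the lowest of the 6 mice, so the groups overlapped. For none of the 7 members did all tumour mice lie above all PBS mice at day 4, as they did for 4.53% of all genes tested. The log2 fold change of tumour over PBS was 0.94 for S100a8 (SE 1.02, 95% interval -1.3 to 3.18, adjusted p = 0.918, limma) and 1.18 for S100a9 (SE 1.04, -1.13 to 3.48, adjusted p = 0.895, limma).

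The granule genes behaved likewise at day 4. Ngp had 7.12, 46.66 and 2.34 normalized counts in tumour mice, against 6.71, 9.02 and 13.17 in PBS mice. Ltf had 0, 30.7 and 2.34, against 2.68, 2.25 and 2.32, and Camp had 0, 13.51 and 1.17, against 4.02, 0 and 0.77. Only replicate 2 of the tumour mice was above the PBS mice in these 3 genes. The log2 fold changes were 0.08 for Ngp (95% interval -2.01 to 2.17), 0.47 for Ltf (-1.79 to 2.73) and 0.61 for Camp (-1.54 to 2.76), with adjusted p from 0.946 to 0.994 in limma. Fitted to recovered reads, the same folds were larger: edgeR gave 0.86 for Ngp, 2.08 for Ltf, 1.66 for Camp, 2.0 for S100a8 and 1.95 for S100a9, with adjusted p from 0.867 to 0.942. Chil3 had 2 reads in each group and Cebpe 0 in tumour mice and 1 in PBS mice, too few for a fold change. An effect as large as several-fold either way is within these intervals.

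Tumour day 4 replicate 2 was higher than each of the 8 other libraries outside tumour day 21 for S100a8, S100a9, Ltf, Ngp and Camp. It had 1 read of Chil3, as did several of the others, and none of Cebpe. It held 236 of the members' reads, 0.00176% of the library (Wilson 95% interval 0.00155% to 0.002%), against 43 and 13 in tumour day 4 replicates 1 and 3 and 25 to 40 in the PBS day 4 mice. Without it the log2 fold changes at day 4 were -0.18 (S100a8), 0.07 (S100a9), -0.98 (Ngp), -0.9 (Ltf) and -0.49 (Camp). Markers of some other cells were high in it and of others were not. The summed erythroid markers (5 of 6 in the table) came to 1137 normalized counts, against 157.9 to 288.9 in the other day 4 mice. The 8 cell cycle genes came to 644.6, against 129.9 to 254.9. The 10 Kupffer cell genes came to 2868, against 517.1 to 2688, little above tumour day 4 replicate 1 (2688) and PBS day 4 replicate 5 (2580). The 7 endothelial markers came to 1892, within the 1163 to 2651 of the day 4 mice, and the 7 monocyte markers to 416.2, below the 425.4 of PBS day 4 replicate 6. Mpo stood at 61.39 in this library, against 0 to 2.03 in the other day 4 mice. The part of those cells in the members' reads was not tested. In replicate 2, Ltf, Ngp and Camp gave 31.8% of the reads they shared with the 4 azurophil genes (Wilson 95% interval 26.1% to 38%). The tumour day 21 mice had 47.4% to 54.6%. Tumour day 4 replicates 1 and 3 gave 17.1% (8.53% to 31.3%) and 55.6% (26.7% to 81.1%), from few reads. The groups' summed reads gave 30.4% at tumour day 4 (25.3% to 36%), mostly from replicate 2. They gave 57.7% at PBS day 4 (46.2% to 68.5%) and 35.3% at PBS day 21 (21.5% to 52.1%). These intervals cover counting error only, not the differences between mice.

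**Figure D4:**
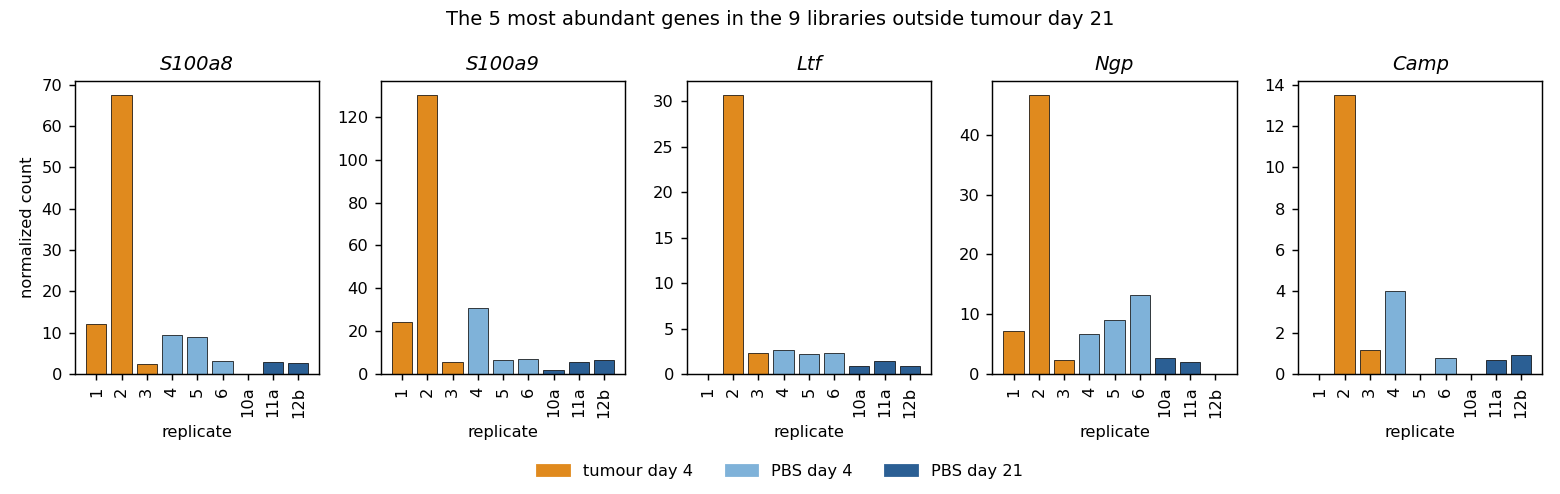
Normalized counts (y axis, from 0, with its own scale for each gene) of the 5 members with the most reads outside tumour day 21, in 9 mice (x axis, replicate). Tumour day 4 replicate 2 has the tallest bar in every panel, from 13.51 for Camp to 130.15 for S100a9.

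In mice without a tumour the members had somewhat lower values at day 21 than at day 4. The PBS day 21 mice took part in the choice of the members, which favours genes that are low there, so this difference is described with no test and nothing is read from it. Of all 12631 genes, limma called 0 (0%) between the days, with 504 (3.99%) at an unadjusted p under 0.05, edgeR called 0 and DESeq2 5. Ngp had 2.62, 2.1 and 0 normalized counts in PBS day 21 mice, against 6.71, 9.02 and 13.17 in PBS day 4 mice, a log2 difference of -2.2 between the group means. S100a8 had 0, 2.8 and 2.72, against 9.39, 9.02 and 3.1, a log2 difference of -1.64. The groups did not overlap for 4 members, S100a8, S100a9, Ltf and Ngp, each lower at day 21, as were 4.51% of all genes tested. Ltf and Ngp were among the members that passed the filter only through the tumour day 21 mice. By summed reads the ratio of PBS day 21 to PBS day 4 was 0.178 for Ngp (6 reads against 30, counting interval 0.0607 to 0.435), 0.328 for S100a8 (7 against 19, 0.117 to 0.816), 0.399 for S100a9 (17 against 38, 0.211 to 0.724) and 0.509 for Ltf (4 against 7, 0.109 to 2). Camp had a ratio of 0.446 (2 against 4, 0.0403 to 3.11), and Chil3 and Cebpe had 0 reads against 2 and 1. The intervals of Ltf and Camp include 1, as do those of Chil3 (0 to 4.75) and Cebpe (0 to 34.8). All cover counting error only, in genes chosen partly on these mice, so none serves as a test.

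In tumour mice the difference between the days ran the other way and was far larger; the tumour day 21 mice chose the genes, so it is described only. Per library read, the tumour day 21 mice had 296-fold the S100a8 of the tumour day 4 mice (counting interval 234 to 381), 258-fold the S100a9 (218 to 308), 716-fold the Ngp (539 to 975), 486-fold the Ltf (334 to 738) and 348-fold the Camp (199 to 675). Chil3 had a ratio of 441 against 2 reads (122 to 3649), and Cebpe, with no read at tumour day 4, was at least 243-fold higher. Single mice on both sides set the size of these ratios. Without tumour day 21 replicate 7 they were 103 for S100a8, 86.7 for S100a9, 223 for Ngp, 154 for Ltf, 110 for Camp and 146 for Chil3, with a bound of 84.7 for Cebpe. Without tumour day 4 replicate 2, which held 55 of the 69 reads of S100a8, they were 1012 for S100a8, 832 for S100a9 and 2593 for Ngp. Against the 2 reads of Ltf and the 1 read each of Camp and Chil3 then left at tumour day 4 they were 4547 (counting interval 1259 to 37553), 2897 (520 to 114456) and 612 (110 to 24183), with a bound of 169 for Cebpe. The 3 tumour day 21 mice were above the 3 tumour day 4 mice for all 7 genes, as for 17.7% of all genes tested. This comparison and that against PBS day 21 share the tumour day 21 libraries.

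The genes around the members in neutrophil biology were then counted at day 21 from 9 lists. Of 88 genes listed, 76 were in the table and 67 were tested. In limma's test 51 of those rose in tumour mice and none fell, beside 5.42% of all genes that rose (684) and 7.85% called in either direction. The median log2 fold change was 4.5 over these 67 genes and 0.02 over all genes. With the 13 genes that had no PBS day 21 read set at their bound, that median was again 4.5. Chil1 stands in 2 of the lists. The lists were drawn up with earlier results in view, and 34 of the 67 genes averaged under 10 normalized counts outside tumour day 21, so they passed the filter only through those mice. Leaving out 1 library at a time, 38 of the 51 calls held in every fit that tested the gene, and 13 were lost without tumour day 21 replicate 7. Of the 51 genes, 12 were not tested in at least 1 of these fits. In the fit without that mouse 54 of the genes were tested and 26 called. The counts of the single lists below stand beside the same 5.42% of all genes and share these limits. At day 4, 0 of the 67 genes were called by limma.

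Of the other secondary and tertiary granule genes, 12 of 13 rose at day 21. Lcn2, lipocalin 2, which binds bacterial iron carriers, had 12691.81, 25194.6 and 8610.97 normalized counts in tumour mice, against 401.88, 69.37 and 369.61 in PBS mice (log2 fold change 6.0, adjusted p = 0.000832, limma). Hp, haptoglobin, had 84239.41, 187614.29 and 88346.99, against 27048.8, 21794.37 and 27484.57 (2.14, adjusted p = 0.000959, limma). Both are also acute-phase genes of the hepatocyte, and in both replicate 8b, not 7, was the highest. Cd177, a neutrophil surface protein, had 2459.53, 523.78 and 359.52, against 0 in each PBS mouse, and Pglyrp1, a peptidoglycan recognition protein, had 1144.55, 241.1 and 167.17, also against 0. Both followed the members in having replicate 7 highest. Itgb2l was the gene of the list that did not pass (log2 fold change 2.38, adjusted p = 0.156, limma).

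Azurophil granule genes rose in 8 of 9 cases, beside 5.42% of all genes tested. Only 2 of the 9 averaged at least 10 normalized counts in PBS day 21 mice. Mpo had 13140.09, 2445.96 and 2273.92 normalized counts in tumour mice, against 0, 1.4 and 0 in PBS mice. Prtn3, proteinase 3, had 7589.4, 2465.92 and 1931.95, against 6.1, 0.7 and 8.17, and Elane had 5030.52, 851.35 and 904.53, against 0, 1.4 and 0. The early granule genes thus stood beside the late ones in the same 3 mice. Ctsc, which encodes the protease that activates these enzymes and is made by many tissues, had 2276.98, 2470.91 and 3198.3, against 1364.3, 1733.57 and 1196.01, and did not pass (log2 fold change 0.89, adjusted p = 0.124, limma), though it did without tumour day 4 replicate 3 (adjusted p = 0.0477, limma).

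Of the transcription factors, 6 of 9 rose. Among relatives of Cebpe, Cebpd had 728.57, 335.88 and 261.05 normalized counts in tumour mice, against 83.69, 102.3 and 62.66 in PBS mice (log2 fold change 2.28, adjusted p = 0.0421, limma), a call lost without any 1 of tumour day 21 replicates 7 and 8b, the 3 PBS day 21 mice, tumour day 4 replicate 3 and PBS day 4 replicate 4 (adjusted p up to 0.198, limma). Cebpa, a factor of both hepatocytes and granulocyte progenitors, did not pass, with 5744.55, 7480.89 and 6153.09 against 9772.37, 7515.18 and 10099.32 (-0.5, adjusted p = 0.377, limma). Cebpb had a log2 fold change of 0.33 (adjusted p = 0.766) and Cebpg of 0.12 (adjusted p = 0.675, both limma). Gfi1 and Myb were chosen for mention after their values were seen. Gfi1, a repressor needed for granulocytes, averaged 144.1 ± 166 against 0.2333 ± 0.404 normalized counts (SD, n = 3 each). Myb, a factor of progenitors, averaged 250.1 ± 272 against 0.29 ± 0.502. With 1 library left out at a time, both calls held in every fit that tested the gene. Gfi1 was tested in 11 of these fits and fell under the filter without tumour day 21 replicate 7. The calls of Spi1 and Runx1 were less stable, each lost in 7 of 12 such fits (adjusted p up to 0.194 and 0.22, limma). Irf8 lost its call in 4 of 12 (adjusted p up to 0.129, limma).

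Neutrophil receptors and late maturation genes rose in 12 of 13 cases, and the 6 tested genes of the phagocyte NADPH oxidase all rose. Csf3r, the receptor of granulocyte colony-stimulating factor, had 1445.83, 317.59 and 241.21 normalized counts in tumour mice, against 10.46, 9.81 and 9.99 in PBS mice (log2 fold change 5.44, adjusted p = 0.00431, limma). Cxcr2 had 577.52, 144.66 and 88.54, against 0, 1.4 and 0.91, and again replicate 7 was highest. Selplg, an adhesion ligand of leukocytes, had a log2 fold change of 3.83 (adjusted p = 0.0162, limma), lost without replicate 7 and without PBS day 21 replicate 11a or 12b (adjusted p up to 0.0803). Fpr1, a formyl peptide receptor, did not pass (1.96, adjusted p = 0.166, limma). Of the oxidase, the membrane subunit Cybb had 3322.99, 590.29 and 741.18, against 143.84, 108.61 and 100.8 (3.27, adjusted p = 0.0179, limma), a call lost without replicate 7, 11a or 12b (adjusted p up to 0.0717). Its cytosolic partners Ncf1 (4.32, adjusted p = 0.00361) and Ncf4 (4.66, adjusted p = 0.00458) and the GTPase Rac2 (4.11, adjusted p = 0.00333, all limma) kept their calls in every such fit.

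The receptors and relatives of calprotectin moved less. Of 6 tested genes of calprotectin receptors and signalling, 2 rose: Myd88, an adaptor of Toll-like receptors, had 460.4, 319.26 and 277.08 normalized counts in tumour mice, against 188.3, 201.81 and 211.59 in PBS mice (log2 fold change 0.78, adjusted p = 0.0213, limma), and Cd14, a co-receptor of TLR4, had 242.32, 66.51 and 80.91, against 24.41, 21.72 and 29.06 (2.09, adjusted p = 0.0258, limma). Both calls were lost without replicate 7 and without any 1 of the PBS day 21 mice, with adjusted p up to 0.0959 for Myd88 and 0.121 for Cd14 in limma. Tlr4 (2.05, adjusted p = 0.166), Bsg (0.28, adjusted p = 0.35), Cd36 (-0.33, adjusted p = 0.798) and Ly96 (-0.17, adjusted p = 0.836, all limma) did not pass. Of the other S100 genes tested, S100a6 and S100a11 rose, both named after their values were seen. S100a6 averaged 120.2 ± 106 normalized counts in tumour mice and 0.29 ± 0.502 in PBS mice (SD, n = 3 each; limma across all genes, adjusted p = 0.00208). S100a11 averaged 175.3 ± 156 and 13.69 ± 8.65 (limma, adjusted p = 0.013), and leaving out tumour replicate 7 or PBS replicate 12b ended that call (limma, adjusted p up to 0.067). The 4 most abundant did not pass: S100a1 (-0.2), S100a10 (-0.74), S100a16 (-0.13) and S100a13 (-0.04) had adjusted p from 0.205 to 0.925 in limma.

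Among the relatives of Chil3, Chil1, a chitinase-like gene of neutrophil granules and macrophages, had 447.48, 123.05 and 90.83 normalized counts in tumour mice, against 0, 0.7 and 2.72 in PBS mice (log2 fold change 6.54, adjusted p = 0.000893, limma). Chid1 did not pass (0.16, adjusted p = 0.58, limma). In the stefin A cluster, which encodes inhibitors of cysteine proteases, 3 of 4 tested genes rose, each with 0 in every PBS day 21 mouse. BC100530 had 146.2, 41.57 and 22.14, Stfa2l1 99.35, 39.91 and 11.45, and Stfa2 80.77, 36.58 and 9.92 in replicates 7, 8b and 9a. Stefin A genes are close copies of each other, so the split of reads among them is uncertain. Cstb, their widely made relative, had 469.29, 498.84 and 567.91, against 548.33, 487.7 and 466.78 (0.03, adjusted p = 0.943, limma).

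**Figure D5:**
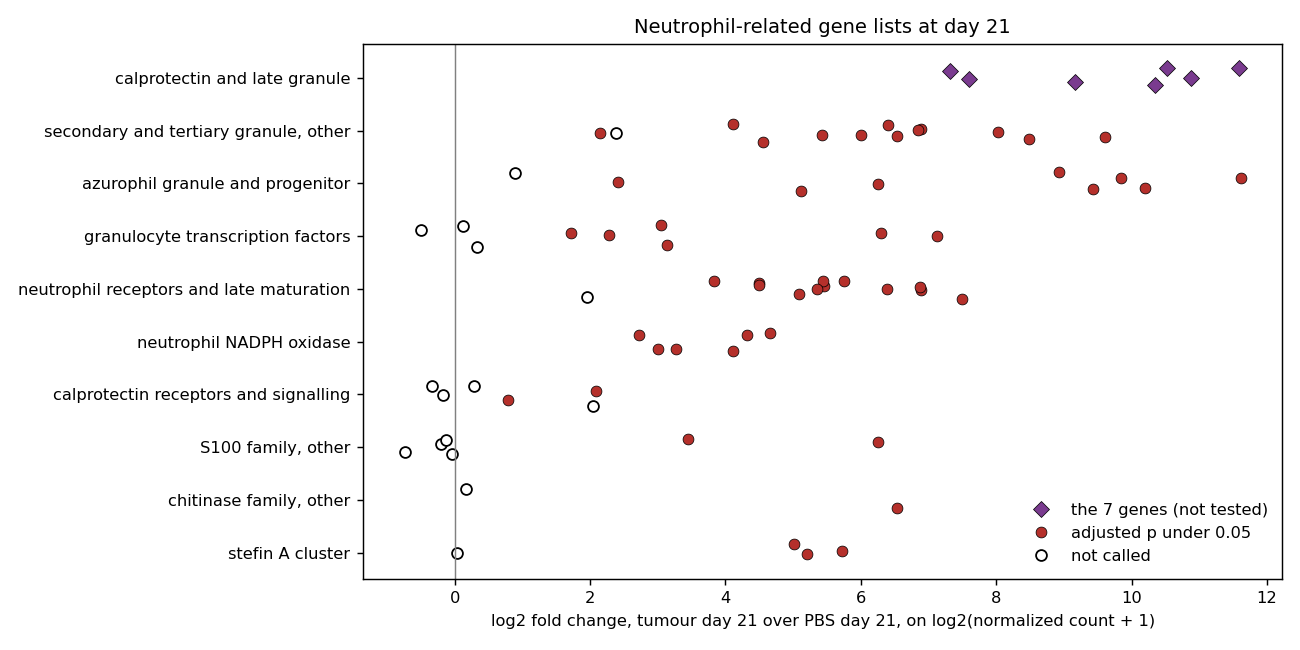
Log2 fold change of tumour day 21 over PBS day 21 (x axis) for the 7 genes (diamonds, not tested) and the tested genes of 9 related lists (y axis), filled where limma's adjusted p was under 0.05 and open where it was not. The 7 genes lie between 7.31 and 11.58, the azurophil list reaches as far with Mpo, and most open points belong to the S100, calprotectin receptor and transcription factor lists.

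Markers of other cells were measured beside the members at day 21, where 5.42% of all genes tested rose in limma. Eosinophil markers (7 of 8 in the table) summed to 158 to 942.6 normalized counts in tumour mice, with none at 0, against 29.97 to 62.76 in PBS mice, where 5 were at 0 in each library. Their defining genes Prg2 and Epx averaged 189.1 ± 193 and 59.6 ± 53.6 in tumour mice (SD, n = 3) and had no read in PBS mice. Of the 4 tested eosinophil markers these were the only ones called; Ccr3 (log2 fold change 0.82, adjusted p = 0.642) and Ear2 (2.4, adjusted p = 0.105, both limma) did not pass. Mast cell and basophil markers (6 of 6) summed to 151.3 to 551.7, against 29.43 to 32.69, with 5 at 0 in each PBS library. Monocyte markers (7 of 7) summed to 786.5 to 5024, against 397.8 to 709.6, and 5 of 6 tested rose. Those 5, like Prg2 and Epx, averaged under 10 normalized counts in every other group. They were thus tested only through the tumour day 21 mice. Kupffer cell markers (10 of 10) summed to 3011 to 22446, against 2794 to 4349, and 1 of 10 rose. Cell cycle genes (8 of 8) summed to 1101 to 5183, against 156.9 to 202.5, and 7 rose. Erythroid markers (5 of 6) summed to 196.2 to 989.5, against 127.1 to 228.4, and endothelial markers (7 of 7) to 2647 to 9595, against 3198 to 4487, with none called. Hepatocyte markers (10 of 10) summed to 1670894 to 2150670, against 2172928 to 2523667. Of the keratinocyte markers, another site of calprotectin, 1 of 6 was in the table, Krt10, with 14.97 to 23.66 against 19.62 to 35.42. Replicate 7 was the highest tumour day 21 mouse in each of these lists but the hepatocyte and keratinocyte ones, and the part of these cells in the members' values was not tested.

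The genes whose pattern was most like that of the members were named by Pearson's r over the 12 libraries between a gene's log2(value + 1) and the members' mean. The libraries fell into 2 sets for these genes, the 3 tumour day 21 mice and the rest, so r describes mainly that split and no p is given. Of 11736 genes compared, 5 had r above 0.99: Prss34 (0.9927) and Mcpt8 (0.9909), proteases of mouse basophils and mast cells, Fcnb, a ficolin (0.9919), Cd177 (0.9913) and Lin28a, an RNA-binding protein (0.9913). Ms4a3 (0.9898), Mpo (0.9897) and Trem3 (0.9896) came next. The members themselves correlated with their mean at 0.9757 (Cebpe) to 0.9924 (Ltf). In tumour day 21 replicates 7, 8b and 9a Prss34 had 134.89, 46.56 and 42.75 normalized counts and Fcnb 971.69, 106.42 and 170.22. Fcnb had 7.02 times as much in replicate 7 as in the mean of the other two, and Prss34 3.02 times, on either side of the members' 5.45.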

How the data were processed

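RNA of hepatocytes was sequenced after polyA selection, per the labels' protocols, in 12 mice of 4 groups. The tools were cutadapt, STAR 2.4.2a, HTSeq and DESeq2 and the genome build GRCm38, per the submitters' processing notes. Which annotation was counted, and on which strand, is not given in the sources used here. Hence reads of overlapping or antisense genes could not be separated. The authors deposited a normalized signal, counts divided by a size factor for each library, as 1 table of 15910 genes. Whole reads were recovered from the steps of the low values, with at least 99.981% of values within 0.1 of a whole number. Positions came from GENCODE M21 (15897 identifiers matched) and promoters from RefSeq GRCm38.p6.

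Genes with a mean of at least 10 were tested on log2(value + 1) with limma 3.58.1 (lmFit, eBayes with trend and robust, R 4.3.3), 1 mean for each group over 12 libraries. Fold changes of genes with few reads depend on the added 1. With 0.5 in its place, the difference of S100a8 between tumour and PBS mice at day 21 went from 10.87 to 11.34. That of Ltf at day 4 went from 0.47 to 0.28. P-values were adjusted by Benjamini-Hochberg over all 12631 genes, and an adjusted p under 0.05 was a call. Intervals for shares are Wilson 95% intervals and those for ratios of reads exact, without allowance for duplicate reads. Where a group had 0 reads, 3 reads over the group stood as the limit.

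The members and lists were chosen with earlier results of these data known, on the day 21 contrast, so the members' values in comparisons with either day 21 group carry no test, also between the days in PBS mice, for which a test had been planned. Beyond the members, the 4 most abundant tested genes of each list and the 8 genes most like the members were named; a gene named outside this rule was chosen after its values were seen, and 1 gene within it is not reported here. Alternatives were pseudocounts of 0.5 and 5, no filter, a mean of at least 50, TMM scaling, edgeR 4.0.16 and DESeq2 1.42.0 on recovered reads, a fit on the groups compared alone, a fit without trend and robust, and leaving out each library. The code was tested on simulated data.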

Additional observations from a re-analysis of the deposited data

Results flagged for a closer look

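S100a8, S100a9, Ltf and Ngp stood out because all tumour mice of day 21 lay above all of day 4, while all PBS mice of day 21 lay below all of day 4. On the log2(value + 1) scale the difference of day 21 minus day 4 was 8.29 in tumour mice and -1.64 in PBS mice for S100a8. It was 8.05 in tumour mice and -1.3 in PBS mice for S100a9. For Ltf it was 9.14 in tumour mice and -0.74 in PBS mice, and for Ngp 9.3 in tumour mice and -2.2 in PBS mice. The difference between the 2 kinds of mice was not tested, because the tumour day 21 mice chose the genes. The PBS day 21 mice took part in that choice too, which favours low values there, so nothing is read from the opposite directions. For Ltf the PBS values rested on 4 reads at day 21 and 7 at day 4. The share of all genes with this pattern was not counted.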

How the results depend on the processing

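No paired analysis was possible because the groups share no replicate number: the labels number the mice 1 to 12 across groups. No member was called at day 4 in any setting run; DESeq2 gave an adjusted p for 2 of the 7 only. Its fitted log2 values at day 4, and those of edgeR, were larger than limma's for Ngp (0.94 and 0.86), Ltf (2.18 and 2.08), Camp (1.67 and 1.66), S100a8 (1.95 and 2.0) and S100a9 (1.86 and 1.95). Leaving out 1 library at a time gave ranges of the day 4 log2 fold change that crossed 0 for S100a8 (-0.18 to 2.0), Ltf (-0.9 to 1.59), Ngp (-0.98 to 0.93), Camp (-0.49 to 1.44) and Chil3 (-0.2 to 0.5); the lowest came without tumour day 4 replicate 2 for all of these but Chil3. Between the days in PBS mice Camp ran from -1.01 to 0.15. No log2 difference of a member at day 21 changed sign in any setting. The choice of the genes fixed that sign, so nothing is read from it. The count of genes called at day 4 was 3 with DESeq2, against 0 with limma, and 0 to 3 with a library left out. In PBS mice it was 5 with DESeq2 and 0 to 15 with a library left out, 15 and the 3 at day 4 both without PBS day 4 replicate 6. At day 21, 992 genes were called, against 584 at a mean of at least 50, 1778 with DESeq2, 620 in a fit of the 2 groups alone, 326 without tumour day 21 replicate 7, 608, 492 and 377 without PBS day 21 replicates 10a, 11a and 12b, and 1171 without replicate 9a. Of the listed genes 51 were called, against 29 of the 44 at a mean of at least 50 and 26 to 52 with a library left out. With 18 reads of Camp and fewer of Chil3 and Cebpe outside tumour day 21, a difference of several-fold in those 3 genes was not detectable at this depth.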
